A study of Mus musculus with 16 samples.

Results

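Refeeding after a fast changed many transcripts of mouse liver in both directions, and this comparison takes all 16 of the 16 libraries in the study. The 8 livers of refed mice were compared with the 8 livers of fasted mice, with diet as an additive term, so that each refeeding effect is an average over both diets. The mice were males of 13 weeks, kept at about 22 °C, that had eaten their diet for 3 weeks from the age of 10 weeks. They fell into 4 groups of 4: control diet and fasted, low isoleucine diet and fasted, control diet and refed, and low isoleucine diet and refed. Isoleucine is a branched-chain amino acid that mice must obtain from food. Livers were taken after an overnight fast of 16 h or after refeeding; for the length of refeeding, the clock time of harvest, the strain and the diets' make-up, the labels give no entry. Poly-A selected RNA of whole liver was sequenced with a protocol that keeps the strand. The labels do not say in words that every library is a separate animal, so the p-values measure the spread between these libraries. Each group carries its own number in the sample labels (1, 2, 7 and 9), and what that number stands for cannot be told apart from the combination of diet and feeding state.

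A fasted liver exports glucose and ketone bodies. Glucagon and glucocorticoids drive gluconeogenesis, fatty acids from adipose tissue activate the nuclear receptor PPAR alpha and its oxidation genes, and FOXO transcription factors are active while insulin is low. After a meal insulin rises, FOXO proteins leave the nucleus, and the transcription factors SREBP-1c, SREBP-2 and ChREBP drive glucose use, fatty acid synthesis and cholesterol synthesis. Secretory protein synthesis also resumes, which loads the endoplasmic reticulum (ER) with nascent protein.

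Total counts ran from 24368656 to 34002955 per library, and 14920 of 51912 genes had enough counts to be tested. Feeding state separated the libraries along the first principal component, which carried 28.6% of the variance: fasted livers scored from -36.4 to -25.4 and refed livers from 13.7 to 42.8. One refed library, control refed replicate 4, stood nearest to the fasted livers on that axis (13.7) and had the largest scaling factor (1.21, against at most 1.07 elsewhere). Counts of list members that rose or fell are given below with and without it where it moves them. Effects of single genes include it unless stated. By edgeR's quasi-likelihood test, 4903 genes passed an adjusted p of 0.05, which is 32.9% of those tested; 2454 rose (16.4%) and 2449 fell (16.4%). Most changes were small: 819 of the genes that passed changed more than 2-fold, 351 upward and 468 downward, and 2723 changed less than 1.5-fold. All 8 libraries of one feeding state lay beyond all 8 of the other for 8.59% of genes tested, 3.77% with refed above and 4.82% with refed below. Without control refed replicate 4 the number that passed was 5332. Scaling by library size alone moved the median log2 fold change over all genes from 0.02 to 0.14, and the share of risers among the calls from 50.1% to 69.1%, so small changes in 1 direction depend on the scaling. Levels below are CPM (counts scaled to a common library size) after scaling by the trimmed mean of M-values (TMM), which refer to RNA per unit of liver RNA; in whole tissue, fewer cells of a type and less RNA per cell cannot be told apart.

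Refed livers held more transcript of the last step of glycolysis and less of the gluconeogenic enzymes. Pklr encodes liver pyruvate kinase, which makes pyruvate from phosphoenolpyruvate. Pklr ran from 38.4 to 59.2 CPM in fasted livers (median 49.2) and from 50.4 to 332 CPM in refed livers (median 215). Here 1 refed library, control refed replicate 4, fell within the fasted range at 50.4 CPM and the other 7 lay above it (log2 fold change 2.10 ± 0.28 (SE), adjusted p = 3.87e-05). Tkfc, which phosphorylates glyceraldehyde made from fructose, rose by 1.49 ± 0.19 on the log2 scale, with no overlap between feeding states. Of the 20 glycolysis and glucose uptake genes tested, 6 rose and 3 fell, a share called of 45% against 32.9% of all genes, and their median log2 fold change was 0.23 against 0.02 over all genes. Without control refed replicate 4, 8 rose and 3 fell.

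Of 20 gluconeogenic enzymes and regulators, 0 rose and 9 fell (median -0.29), against a background of 16.4% falling. Pck1, phosphoenolpyruvate carboxykinase, carries carbon from the mitochondrion back towards glucose. Pck1 ran from 2553 to 4290.2 CPM in fasted livers (median 3912) and from 372 to 1662 CPM in refed livers (median 883). Every refed library was below every fasted one, by 3.79-fold on average (log2 fold change -1.92 ± 0.25 (SE), adjusted p = 1.71e-05). Ppargc1a, the coactivator PGC-1 alpha that switches on gluconeogenic genes, also fell with no overlap (log2 fold change -1.79 ± 0.22 (SE), adjusted p = 1.23e-05). G6pc, the catalytic subunit of glucose-6-phosphatase that releases free glucose, fell by 1.43 on the log2 scale (SE 0.30, adjusted p = 0.00179), with refed values from 71.3 to 320.2 CPM that overlapped the fasted range of 264 to 765 CPM. Sds, serine dehydratase, and Got1, cytosolic aspartate aminotransferase, feed amino acid carbon into the pathway and changed by -1.55 ± 0.27 and -1.51 ± 0.26. Txnip, an arrestin-like protein that lowers glucose uptake, ran from 119 to 357 CPM in fasted and from 39.4 to 98.2 CPM in refed livers (log2 fold change -1.69 ± 0.22 (SE), adjusted p = 2.26e-05). Pck1 lies on chromosome 2 at 173153048 to 173159273 in the GENCODE M21 annotation of GRCm38; this position and those below belong to that annotation, since no label names the build behind the counts.

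The targeting subunits that bring protein phosphatase 1 to glycogen changed in opposite directions. Ppp1r3g had the largest fold change among the genes with at least 1 CPM whose feeding states did not overlap. It ran from 0.58 to 17 CPM in fasted livers (median 3.52) and from 0 to 0.174 CPM in refed livers (median 0.0487). Its fitted log2 fold change was -6.20 ± 0.75 (adjusted p = 1.46e-05), a value that depends on the prior count because some refed libraries hold no read of it. Ppp1r3b, the main liver targeting subunit, ran from 114 to 177 CPM fasted and from 184 to 475 CPM refed, 2.38-fold higher with no overlap (log2 fold change 1.25 ± 0.17 (SE), adjusted p = 2.04e-05). Ppp1r3c, another such subunit, rose by 1.24 ± 0.22. Gys2, liver glycogen synthase itself, changed by -0.64 ± 0.14 (adjusted p = 0.00149). Across the 15 glycogen genes tested, 7 rose and 3 fell (66.7% called against 32.9% of all genes); without control refed replicate 4, 5 rose and 3 fell.

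**Figure D1:**
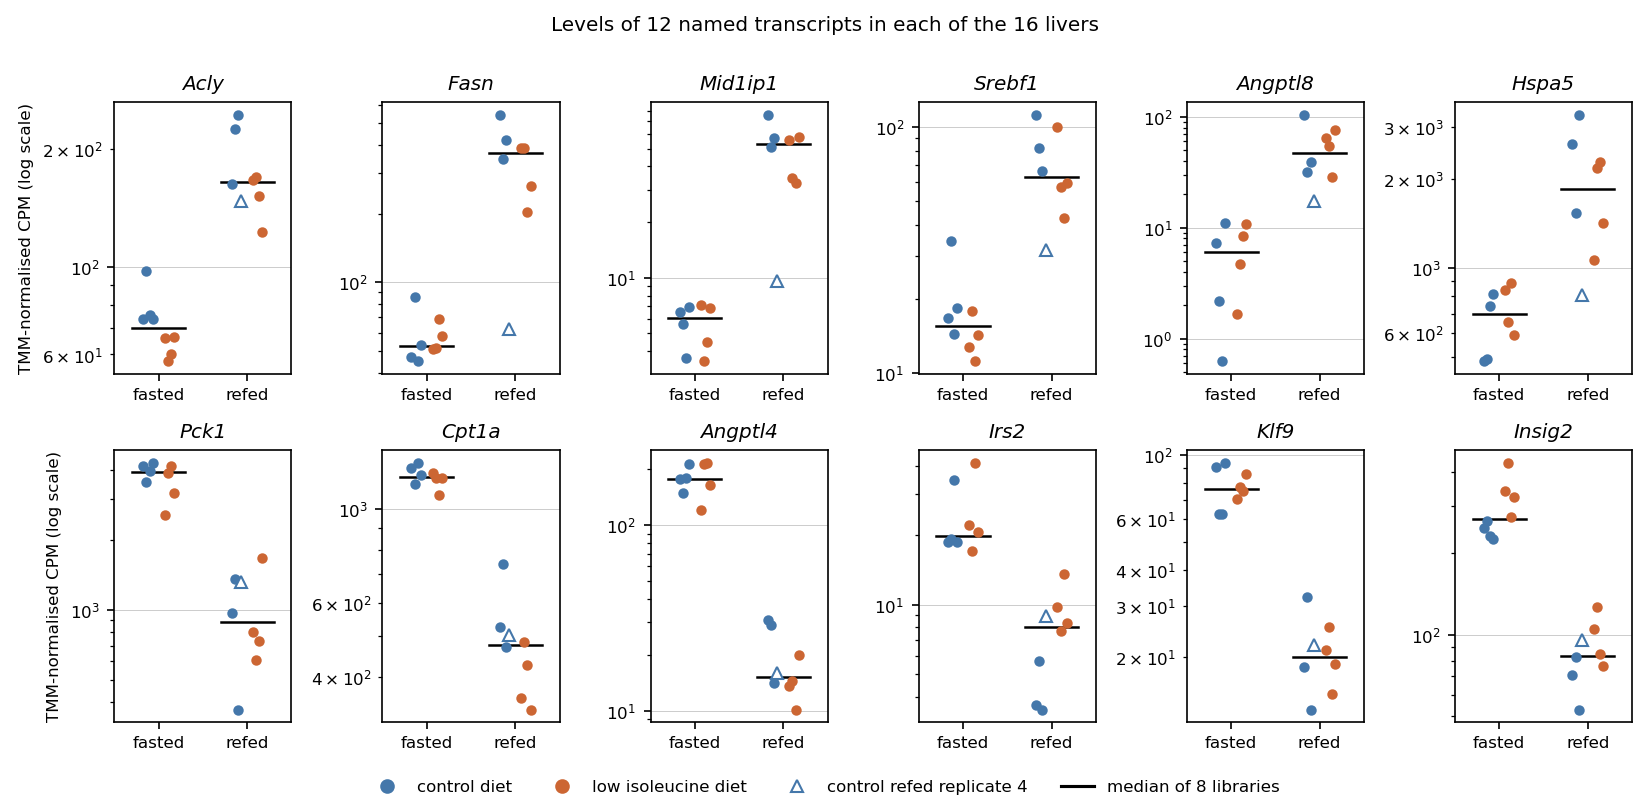
TMM-normalised CPM (log axis) of 12 transcripts in each liver, by feeding state; points are libraries coloured by diet, the open triangle is control refed replicate 4 and bars are medians of 8 libraries. For Acly, Mid1ip1, Angptl8, Pck1, Cpt1a, Angptl4, Irs2, Klf9 and Insig2 the feeding states do not overlap, while for Fasn, Srebf1 and Hspa5 control refed replicate 4 reaches into the fasted range.

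Enzymes and regulators of fatty acid synthesis rose, while the lipin gene Lpin2 fell and the desaturase gene Scd1 did not pass. Srebf1 encodes SREBP-1, the sterol regulatory element binding protein that drives lipogenic genes under insulin. Srebf1 ran from 11.1 to 34.4 CPM in fasted livers (median 15.5) and from 31.7 to 112 CPM in refed livers (median 62.8). Refed libraries lay above the fasted ones save that control refed replicate 4, at 31.7 CPM, fell below the highest fasted library (log2 fold change 2.00 ± 0.26 (SE), adjusted p = 2.60e-05). Fasn, fatty acid synthase, lies on chromosome 11 at 120805846 to 120824547. Fasn ran from 44.8 to 85.5 CPM in fasted livers (median 52.1) and from 62.2 to 545 CPM in refed livers (median 368). Its refed values separated from the fasted ones in 7 of 8 refed libraries, and control refed replicate 4 stood inside the fasted range at 62.2 CPM; the average was 5.7-fold higher (log2 fold change 2.51 ± 0.32 (SE), adjusted p = 2.55e-05). Acly, ATP citrate lyase, which supplies cytosolic acetyl-CoA, ran from 57.6 to 97.7 CPM fasted and from 123 to 244 CPM refed without overlap (log2 fold change 1.28 ± 0.11 (SE), adjusted p = 1.60e-07).

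Mid1ip1 and Thrsp encode related proteins, MIG12 and Spot 14, of which MIG12 promotes the activity of acetyl-CoA carboxylase. Mid1ip1 ran from 3.52 to 7.09 CPM fasted and from 9.65 to 76.3 CPM refed, 8.36-fold higher (log2 fold change 3.06 ± 0.33 (SE), adjusted p = 5.16e-06). All refed libraries were above the fasted ones, with control refed replicate 4 lowest among them. Thrsp rose by 2.79 ± 0.49, and Aacs, which makes acetoacetyl-CoA for lipid synthesis in the cytosol, by 3.19 ± 0.37. In both, control refed replicate 4 lay within the fasted range, at 8.01 and 9.92 CPM. Acaca, acetyl-CoA carboxylase 1, and Elovl6, which elongates palmitate, rose by 0.65 ± 0.14 and 1.06 ± 0.19, each with overlap between feeding states. Pnpla3, a lipid droplet protein under SREBP-1c control, reached at most 4.83 CPM and rose by 2.09 ± 0.43.

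Scd1, stearoyl-CoA desaturase 1, did not pass. Scd1 ran from 1493 to 5935 CPM in fasted livers (median 2112) and from 334 to 5272 CPM in refed livers (median 762), and its log2 fold change was -1.12 ± 0.42 (adjusted p = 0.0514; 95% interval -2.01 to -0.23). Over both diets the ranges overlap widely, with the refed median below the lowest fasted library. On low isoleucine food all refed livers (334 to 952 CPM) lay below all fasted ones (1510 to 2153 CPM). On control food the refed range of 573 to 5272 CPM overlapped the fasted range of 1493 to 5935 CPM. The interaction did not pass for Scd1 by edgeR. The call over both diets changed with the choice of test (adjusted p = 0.0101 by DESeq2 and 0.0167 by limma-voom, each with a log2 fold change below 0). Lpin2, a lipin that converts phosphatidate to diacylglycerol and is also induced by fasting, fell 5.71-fold, from 386 to 666 CPM fasted to 64 to 192 CPM refed (log2 fold change -2.51 ± 0.20 (SE), adjusted p = 1.02e-07). Over the list of 28 genes, 13 rose and 6 fell (67.9% called against 32.9% of all genes, median 0.20). The counts were the same without control refed replicate 4. In that library the mean log2 level of the list was -0.40 relative to the fasted mean, against 0.13 to 0.93 in the other 7 refed livers, and it was the lowest refed library for 11 of the 13 genes that rose. What sets this library apart was not tested.

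Most transcripts on the list for cholesterol synthesis and uptake rose. Of 27 genes tested, 22 rose and 3 fell, a share called of 92.6% against 32.9% of all genes. The list holds regulators such as Insig2 beside the enzymes, so the counts are not of pathway steps alone. The median log2 fold change was 1.11 against 0.02 over all genes, and the per-gene values ran from -1.74 to 2.99. On control food 8 of 27 passed (median 0.93), against 17.1% of all genes. On low isoleucine food 18 of 27 passed (median 1.25), against 21.4% of all genes. Of these genes, 0 passed the interaction test by edgeR or limma-voom. Without control refed replicate 4, 23 rose and 3 fell, and without low isoleucine refed replicate 1 the number that fell was 1. Sqle, squalene epoxidase, is a control point late in the pathway. Sqle ran from 5.79 to 49.1 CPM in fasted livers (median 16.7) and from 29.5 to 134 CPM in refed livers (median 103). The ranges overlapped through control refed replicate 4, the lowest refed library at 29.5 CPM (log2 fold change 1.95 ± 0.42 (SE), adjusted p = 0.00234). Mvd and Fdps, which lie between mevalonate and squalene, rose by 2.99 ± 0.46 and 2.01 ± 0.40.

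The 2 Insig genes, whose products hold SREBP precursors in the ER, moved in opposite directions. Insig1, an SREBP target, rose by 1.23 ± 0.28, while Insig2 fell 3.35-fold. Insig2 ran from 226 to 434 CPM in fasted livers (median 268) and from 52.8 to 126 CPM in refed livers (median 83.7), and the ranges were far apart (log2 fold change -1.74 ± 0.13 (SE), adjusted p = 4.21e-08). For all 22 cholesterol genes that rose, control refed replicate 4 was the lowest of the refed libraries. The mean log2 level of the list, set to 0 at the fasted mean, was -0.14 in that library and ran from -0.60 to 0.65 in the fasted livers and from 0.91 to 1.49 in the other 7 refed livers.

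SREBPs bind sterol regulatory elements, so the promoters of the list were searched for the letters TCACNCCAC on both strands, from 250 bases before to 50 after each RefSeq start site (GRCm38.p6). Promoters were found for 10736 of the tested genes, 13749 in all, and for 19 of the cholesterol genes. The motif was present in 1.2% of all these promoters and in 1 of the 17 promoters of cholesterol genes that rose, which is that of Hmgcs1, HMG-CoA synthase of the cytosol. The CCAAT box, bound by NF-Y, was present in 13 of those 17 promoters (76.5%) against 37.4% of all. The Hmgcs1 promoter is shown because it is the only one of the set with the exact letters; it lies on chr13:119690101-119690400, plus strand, and the match begins at position -137 relative to the start site. Hmgcs1 itself rose by 1.30 on the log2 scale (adjusted p = 0.00559). Capitals mark the match.
Hmgcs1 promoter: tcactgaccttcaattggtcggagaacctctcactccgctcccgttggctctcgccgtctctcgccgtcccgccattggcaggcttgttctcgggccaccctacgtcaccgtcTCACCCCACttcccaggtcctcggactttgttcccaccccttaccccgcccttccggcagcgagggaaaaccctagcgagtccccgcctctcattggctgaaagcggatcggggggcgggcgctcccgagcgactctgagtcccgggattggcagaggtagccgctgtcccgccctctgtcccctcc
A match is a description of the letters and says nothing of whether a factor binds there.

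Of 16 bile acid and sterol transport genes, 1 rose and 5 fell (37.5% called against 32.9% of all genes); 4 fell without control refed replicate 4 and 3 without low isoleucine fasted replicate 4 or with library size alone. Abcg5 and Abcg8 form the transporter that moves sterols into bile, and fell by 0.85 and 1.27 on the log2 scale, each with no overlap (adjusted p = 4.40e-05 and 9.96e-06). Cyp8b1, which makes cholic acid, ran from 832 to 1236 CPM fasted and from 207 to 709.8 CPM refed (log2 fold change -1.18 ± 0.19 (SE), adjusted p = 1.42e-04). Cyp7a1, the rate-limiting enzyme of bile acid synthesis, had a log2 fold change of 0.66 ± 0.25 that did not pass (adjusted p = 0.0584) but passed by DESeq2 (adjusted p = 0.0241) and limma-voom (adjusted p = 0.0407). Nr1h4, the bile acid receptor FXR, rose by 0.60 ± 0.10.

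Transcripts for fatty acid oxidation were lower in refed livers, for mitochondria and for peroxisomes. Of 24 mitochondrial genes 0 rose and 16 fell (median -0.39), and of 21 peroxisomal and omega-oxidation genes 0 rose and 19 fell (median -0.73), against 16.4% of all genes falling. Both counts were the same without control refed replicate 4. The mitochondrial list also counts Pdk4, described below, among the genes that fell. Cpt1a, carnitine palmitoyltransferase 1, admits long-chain fatty acids to the mitochondrion and lies on chromosome 19 at 3322334 to 3385733. Cpt1a ran from 1075 to 1283 CPM in fasted livers (median 1191) and from 336 to 739.7 CPM in refed livers (median 478). The narrow fasted range stood above all refed libraries (log2 fold change -1.33 ± 0.11 (SE), adjusted p = 1.50e-07). Slc22a5, the carnitine transporter, fell 3.86-fold and Acsl1, which activates fatty acids, 2.32-fold, both with no overlap. Pdk4, a kinase that holds pyruvate dehydrogenase off in fasting, fell 6.48-fold (log2 fold change -2.70 ± 0.37 (SE), adjusted p = 5.49e-05), from a spread-out fasted range of 7.47 to 77.2 CPM to 2.38 to 5.81 CPM.

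Ppara encodes the nuclear receptor that governs these genes, and it fell too. Ppara ran from 97.9 to 168 CPM in fasted livers (median 123) and from 28.5 to 65.4 CPM in refed livers (median 44.4), a 2.91-fold difference with no overlap (log2 fold change -1.54 ± 0.15 (SE), adjusted p = 9.30e-07). Of 8 genes on the ketone body list, 1 rose and 4 fell (62.5% called against 32.9% of all genes). This list counts Ppara among those that fell, and the gene that rose is the transporter gene Slc16a6. The monocarboxylate transporter genes Slc16a1 and Slc16a6 moved in opposite directions, by -0.85 ± 0.19 and 1.33 ± 0.15; the product of Slc16a6 exports ketone bodies from liver in zebrafish. The acyl-CoA thioesterases of the Acot family and the Cyp4a omega-hydroxylases were among the genes that fell, but they are near-identical families, and reads could be split among their members. Cyp4a14 changed by -0.65 ± 0.11.

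Genes of lipid droplets and lipase control fell more often than they rose. Angptl4, a secreted inhibitor of lipoprotein lipase, and Angptl8, a secreted relative that directs triglyceride between tissues in the fed state, showed opposite and large changes. Angptl4 ran from 120.3 to 217 CPM in fasted livers (median 178) and from 10.1 to 30.8 CPM in refed livers (median 15.2). The lowest fasted library was several times the highest refed one (log2 fold change -3.31 ± 0.21 (SE), adjusted p = 1.43e-08), and the gene lies on chromosome 17 at 33773750 to 33781830. Angptl8 ran from 0.622 to 11 CPM in fasted livers (median 5.99) and from 17.6 to 105 CPM in refed livers (median 47.1). The refed libraries were again all apart from the fasted ones, now above them (log2 fold change 3.16 ± 0.53 (SE), adjusted p = 3.25e-04). Plin2, which coats lipid droplets, fell 2.79-fold and Cidec, which fuses them, 3.74-fold, both with no overlap. Of 20 droplet and lipase genes, 2 rose and 10 fell (60% called against 32.9% of all genes, median -0.60).

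**Figure D2:**
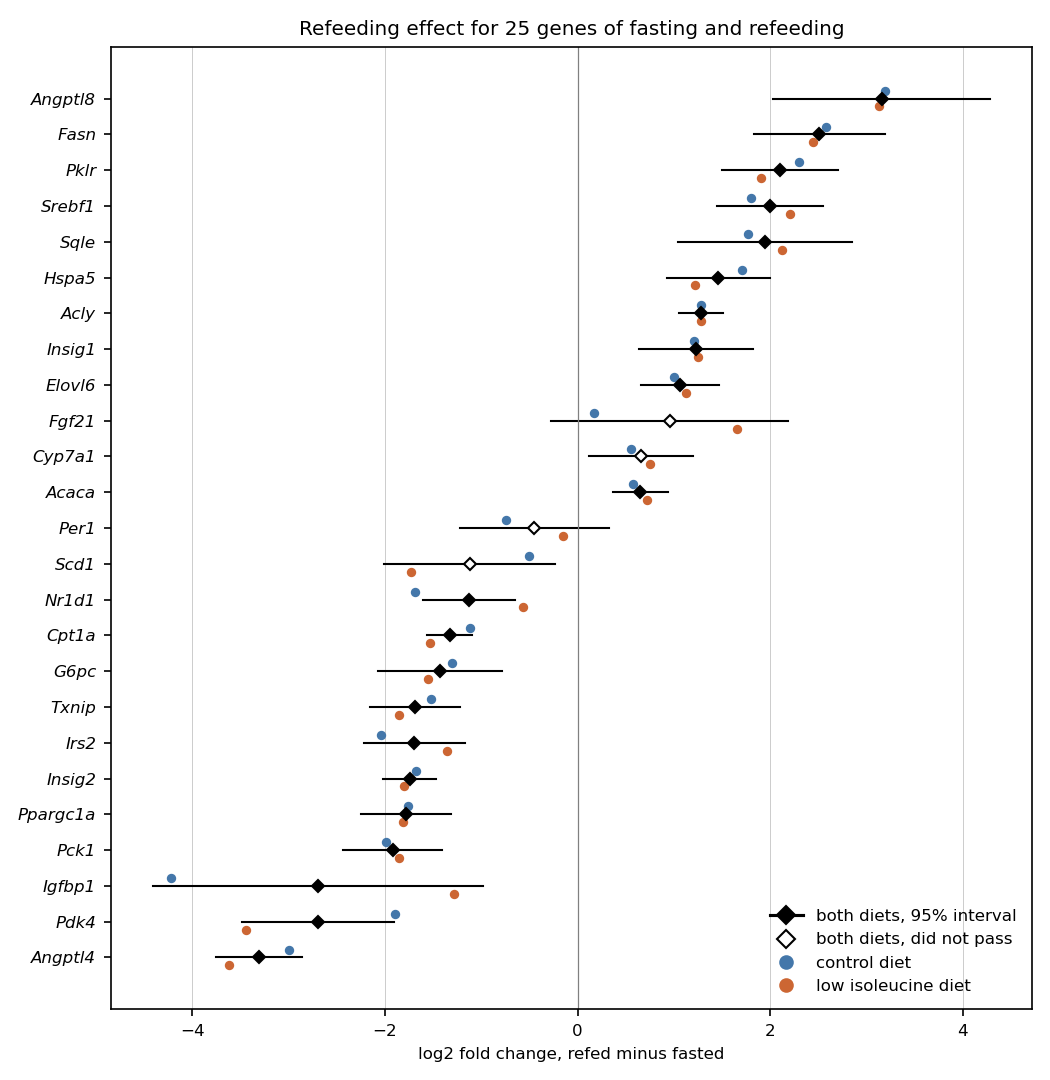
Log2 fold change (refed minus fasted) of 25 genes known from fasting and refeeding. Diamonds with lines are the effect over both diets with its 95% interval, open diamonds did not pass, and coloured points are the effects on each diet. Of the 25, 21 passed, from Angptl4 at -3.31 to Angptl8 at 3.16; Scd1, Fgf21, Per1 and Cyp7a1 did not.

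Irs2 and Igfbp1, which insulin represses through FOXO1, fell. Irs2, the insulin receptor substrate of the fasted liver, ran from 17.1 to 41.2 CPM fasted and from 3.51 to 13.6 CPM refed without overlap (log2 fold change -1.70 ± 0.25 (SE), adjusted p = 7.40e-05). Igfbp1 ran from 44.6 to 243 CPM in fasted livers (median 72.8) and from 0.998 to 107 CPM in refed livers (median 8.48), so the ranges of this insulin-like growth factor binding protein overlapped (log2 fold change -2.70 ± 0.81 (SE), adjusted p = 0.0175). Its effect was -4.22 with control food and -1.28 with low isoleucine food, and without the diet term in the model it did not pass (adjusted p = 0.0802). Socs2 and Socs3, feedback inhibitors of cytokine and growth hormone receptors, fell by 1.61 and 1.10 on the log2 scale. Of 23 insulin and growth hormone signalling genes, 2 rose and 7 fell (39.1% called against 32.9% of all genes), and their median was -0.09; without control refed replicate 4, 3 rose and 8 fell. Among secreted factors, Hamp, the iron hormone hepcidin, rose 4.03-fold, from 44.2 to 769.8 CPM fasted to 613 to 1878 CPM refed (log2 fold change 2.01 ± 0.42 (SE), adjusted p = 0.00174). Fgf21, a fasting and protein-restriction hormone, did not pass at 0.96 ± 0.58 (adjusted p = 0.228), with refed values spread from 2.24 to 97.4 CPM. On control food its mean was 5.42 CPM fasted and 6.12 CPM refed. On low isoleucine food the means were 13.6 and 43.0 CPM, with refed livers from 5.03 to 97.4 CPM. The interaction did not pass for Fgf21 by edgeR.

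Of 16 glucocorticoid-responsive genes 0 rose and 7 fell (43.8% called against 32.9% of all genes, median -0.53). Without control refed replicate 4, 1 rose and 6 fell. Klf9, a Krüppel-like factor, ran from 62.3 to 94 CPM fasted and from 13.1 to 32.1 CPM refed (log2 fold change -1.90 ± 0.16 (SE), adjusted p = 1.73e-07). Zbtb16, a zinc finger repressor, fell 10.04-fold, its highest refed library at 8.53 CPM just passing its lowest fasted one at 8.43 CPM. Mt2, a metallothionein that also responds to zinc, fell 8.29-fold (log2 fold change -3.05 ± 0.48 (SE), adjusted p = 1.77e-04); it shares much sequence with its relative, and reads could be split between them.

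Core clock genes moved in both directions, 5 up and 4 down of 20 (45% called against 32.9% of all genes); without control refed replicate 4, 5 rose and 6 fell. Fasted and refed mice may have been killed at different clock times, which the labels do not name. Feeding and time of day therefore cannot be told apart, for clock genes or for any other gene reported here. Per2, a repressor of the clock, ran from 7.15 to 26.2 CPM fasted and from 38 to 85.3 CPM refed (log2 fold change 2.02 ± 0.20 (SE), adjusted p = 1.14e-06). Cry1, its partner, was 2.64-fold higher, also with no overlap. Bhlhe40, another clock repressor, rose by 1.17 ± 0.20. Nr1d1, the repressor REV-ERB alpha, changed by -1.12 ± 0.23 (adjusted p = 0.00109), with -1.69 with control food and -0.57 with low isoleucine food. Per1 did not pass (-0.45 ± 0.36, adjusted p = 0.38; it passed without low isoleucine refed replicate 4, adjusted p = 0.0357).

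Genes that fold secretory protein rose together. Of 30 ER chaperone and unfolded protein response genes, 22 rose and 0 fell (median 0.65), against 16.4% of all genes rising. Without control refed replicate 4, 23 rose. On control food 20 of 30 passed (median 0.74), against 17.1% of all genes. On low isoleucine food 9 of 30 passed (median 0.51), against 21.4% of all genes. Of these genes, 0 passed the interaction test by edgeR or limma-voom. Hspa5, the ER chaperone BiP, lies on chromosome 2 at 34771970 to 34777547. Hspa5 ran from 483 to 891 CPM in fasted livers (median 699) and from 809.6 to 3294 CPM in refed livers (median 1851). The low end of the refed range was control refed replicate 4, which overlapped the fasted livers, as the other 7 did not (log2 fold change 1.46 ± 0.25 (SE), adjusted p = 3.28e-04). Manf and Sdf2l1, secreted and ER-resident factors of the same response, rose 3.67-fold and 4.36-fold. Creld2, an ER folding factor, and Hsp90b1, the chaperone GRP94, rose by 1.86 ± 0.42 and 0.85 ± 0.23. The mean level of the list was -0.20 in control refed replicate 4 relative to the fasted mean; it ran from -0.25 to 0.27 in the fasted livers and from 0.21 to 1.28 in the other 7 refed livers. That library was the lowest refed one for 20 of the 22 genes.

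The ER stress element joins a CCAAT box to the letters CCACG, so both were counted in the same promoter windows, on both strands and at any spacing. Both were present in 12 of 19 promoters of ER genes that rose (63.2%), in 18 of 25 promoters of the whole list (72%), and in 16.4% of all 13749. The Hspa5 promoter is shown as the member with the lowest adjusted p that holds both; it lies on chr2:34771840-34772139, plus strand. It has 4 CCAAT boxes, 1 of them read on the opposite strand as ATTGG, and 1 CCACG, all in capitals.
Hspa5 promoter: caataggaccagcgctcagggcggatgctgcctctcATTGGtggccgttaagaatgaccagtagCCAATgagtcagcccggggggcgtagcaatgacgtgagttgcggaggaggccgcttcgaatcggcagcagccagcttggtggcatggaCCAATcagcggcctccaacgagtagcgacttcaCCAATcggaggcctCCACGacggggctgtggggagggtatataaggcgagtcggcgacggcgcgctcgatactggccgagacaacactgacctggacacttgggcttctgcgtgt
The letters were searched without regard to the spacing of the full element.

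Cytosolic heat shock genes rose as well, 13 of 20 with 0 falling (65% called against 32.9% of all genes, median 0.54). Stip1, the HOP cochaperone that links HSP70 to HSP90, ran from 50.5 to 76 CPM fasted and from 103 to 191 CPM refed (log2 fold change 1.01 ± 0.12 (SE), adjusted p = 8.30e-06). Hsph1, an HSP110 exchange factor, and Hsp90aa1, the inducible HSP90, rose by 1.19 ± 0.26 and 1.11 ± 0.26; in both, control refed replicate 3 was far above the other refed libraries, at 290.2 and 1126 CPM. Bag3, an HSP70 cochaperone, rose by 0.91 ± 0.16, and Hspa8, the constitutive HSC70, by 0.69 ± 0.15. The list's median effect was 0.94 with control food, where 13 of 20 passed against 17.1% of all genes. It was 0.32 with low isoleucine food, where 2 of 20 passed against 21.4% of all genes. Of these genes, 0 passed the interaction test by edgeR or limma-voom.

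ATF4 is the transcription factor of the integrated stress response, which amino acid shortage and ER stress both activate. Of 24 of its targets tested, 14 rose and 1 fell (62.5% called against 32.9% of all genes, median 0.66). Without control refed replicate 4, 13 rose and 2 fell. Mthfd2, a mitochondrial folate enzyme, ran from 0.355 to 0.725 CPM fasted and from 1.11 to 21.1 CPM refed (log2 fold change 3.13 ± 0.48 (SE), adjusted p = 1.21e-04). All refed libraries were above the fasted ones, at low levels in both. Psat1, of serine synthesis, Ddit3, the factor CHOP, and Chac1, which degrades glutathione, rose by 2.92 ± 0.52, 1.74 ± 0.29 and 3.15 ± 0.84. Atf3, an immediate early gene and ATF4 target, rose by 2.95 ± 0.44. Relative to the fasted mean, the mean level of the list was 0.01 to 0.08 in control refed replicates 1 to 3, 0.60 in control refed replicate 4 and 0.28 to 1.95 in the low isoleucine refed livers. The median effect over the 24 genes was 0.41 with control food and 1.14 with low isoleucine food; 0 of these genes passed the interaction test by edgeR or limma-voom, and 1 did by DESeq2. That gene, named after its value was seen, was Sesn2, a stress-induced inhibitor of mTORC1 signalling (log2 interaction 2.31, adjusted p = 0.0452 by DESeq2 and 0.497 by edgeR). Chac1 changed by 1.14 with control food and 4.96 with low isoleucine food (interaction adjusted p = 0.602 by edgeR).

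The cytosolic aminoacyl-tRNA synthetases charge transfer RNAs with amino acids. Of 20 tested, 15 rose and 0 fell (75% called against 32.9% of all genes, median 0.52). Here the diets gave like medians, 0.45 on control and 0.50 on low isoleucine food. Cars, the cysteine enzyme, ran from 9.32 to 11.5 CPM fasted and from 18 to 52.1 CPM refed (log2 fold change 1.43 ± 0.17 (SE), adjusted p = 4.78e-06). Yars, Aars and Wars, for tyrosine, alanine and tryptophan, rose by 1.04 ± 0.10, 0.88 ± 0.11 and 0.71 ± 0.10, each with no overlap. Slc1a4, a carrier of alanine, serine and cysteine, rose by 1.96 ± 0.26. Other carriers fell: Slc7a2, the cationic amino acid carrier of liver, by 1.80, Slc25a47, a mitochondrial carrier of liver, by 2.15, and Slc25a22, the mitochondrial glutamate carrier, by 1.37 on the log2 scale. Of 24 genes on the amino acid carrier list 5 rose and 5 fell (41.7% called against 32.9% of all genes). The largest fall on that list is Slc25a47, which is named here only as a mitochondrial carrier. Without control refed replicate 4, 6 rose and 7 fell.

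Most ribosome assembly genes rose, while few ribosomal protein genes passed. Of 35 ribosome biogenesis genes, 23 rose and 0 fell (median 0.49). Of 51 cytosolic ribosomal protein genes 2 rose and 0 fell (median 0.14), below the 16.4% of all genes that rose. With library size alone 15 ribosomal protein genes rose, and the number over all 14920 genes was 3639 in place of 2454. Nop56, a core protein of the particles that methylate ribosomal RNA, ran from 17.9 to 32.2 CPM fasted and from 40.8 to 64.3 CPM refed without overlap (log2 fold change 1.08 ± 0.12 (SE), adjusted p = 3.14e-06). Its partner Nop58 rose by 0.89 ± 0.14, and Rrp12 and Bysl, which mature the small subunit, by 1.05 ± 0.13 and 0.97 ± 0.11. The mean level of the list in control refed replicate 4 (0.57) lay within the range of the other 7 refed livers (0.35 to 0.65), unlike the lipid and ER lists. Without that library, 21 rose and 0 fell on the biogenesis list, and 3 rose and 0 fell among the ribosomal protein genes. Among 27 translation factors 10 rose and 3 fell (48.1% called against 32.9% of all genes). Eif2b3, a subunit of the exchange factor eIF2B, rose by 0.74 ± 0.09, Eef2k, the kinase that slows elongation, rose by 0.91 ± 0.14, and Eif4ebp2, a repressor of cap-dependent initiation, fell by 0.76 on the log2 scale.

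Proteasome subunits rose by small amounts, 12 of 31 with 0 falling (38.7% called against 32.9% of all genes, median 0.17). Without control refed replicate 4, 11 rose. Psmd14, the lid deubiquitinase, and Psmd7 rose by 0.39 ± 0.08 and 0.37 ± 0.06. These small changes depend on the scaling: with library size alone 19 proteasome genes and 16 translation factors rose, and 20 of 41 nuclear oxidative phosphorylation genes in place of 7. Under that scaling 3639 of all 14920 genes rose in place of 2454, so part of these increases is shared with all genes. Of 21 cell cycle and replication genes, 6 rose and 0 fell (28.6% called against 32.9% of all genes). Without control refed replicate 4, 5 rose and 0 fell. The median effect of the 21 genes was 0.61 with control food, where 8 passed against 17.1% of all genes. It was 0.01 with low isoleucine food, where 1 passed against 21.4% of all genes. The mean level of the list ran from 0.35 to 0.87 in control refed livers and from -0.15 to 0.02 in low isoleucine refed livers, relative to the fasted mean; 0 of the 21 genes passed the interaction test by edgeR, limma-voom or DESeq2. Mcm5, of the replicative helicase, rose by 1.32 ± 0.17 and Ccnd1, cyclin D1, by 1.14 ± 0.23; for Ccnd1 the highest library was control refed replicate 4 at 60.6 CPM.

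The autophagy genes that passed all fell, while genes that break down amino acids were called about as often as all genes. Of 32 amino acid catabolism genes 2 rose and 9 fell (34.4% called against 32.9% of all genes); without control refed replicate 4, 2 rose and 12 fell. Tdo2, which opens the tryptophan ring, ran from 2218 to 2887 CPM fasted and from 1192 to 1839 CPM refed (log2 fold change -0.88 ± 0.10 (SE), adjusted p = 3.44e-06). Kyat1, kynurenine aminotransferase 1, rose by 1.15 ± 0.19, and Glud1, glutamate dehydrogenase, was 1.62-fold higher with no overlap (log2 fold change 0.70 ± 0.07 (SE), adjusted p = 9.90e-07). Mat1a, which makes S-adenosylmethionine in hepatocytes, had one of the 6 largest falls in CPM, from 9017 to 12262 CPM fasted to 5353 to 9236 CPM refed. Of 29 autophagy and lysosome genes 0 rose and 14 fell (48.3% called against 32.9% of all genes, median -0.21). Without control refed replicate 4, 13 fell. Depp1, a FOXO target that promotes autophagy, fell 5.1-fold. Wipi1, which marks forming autophagosomes, and Gabarapl1, of the ATG8 family, fell 2.55-fold and 2.04-fold with no overlap.

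**Figure D3:**
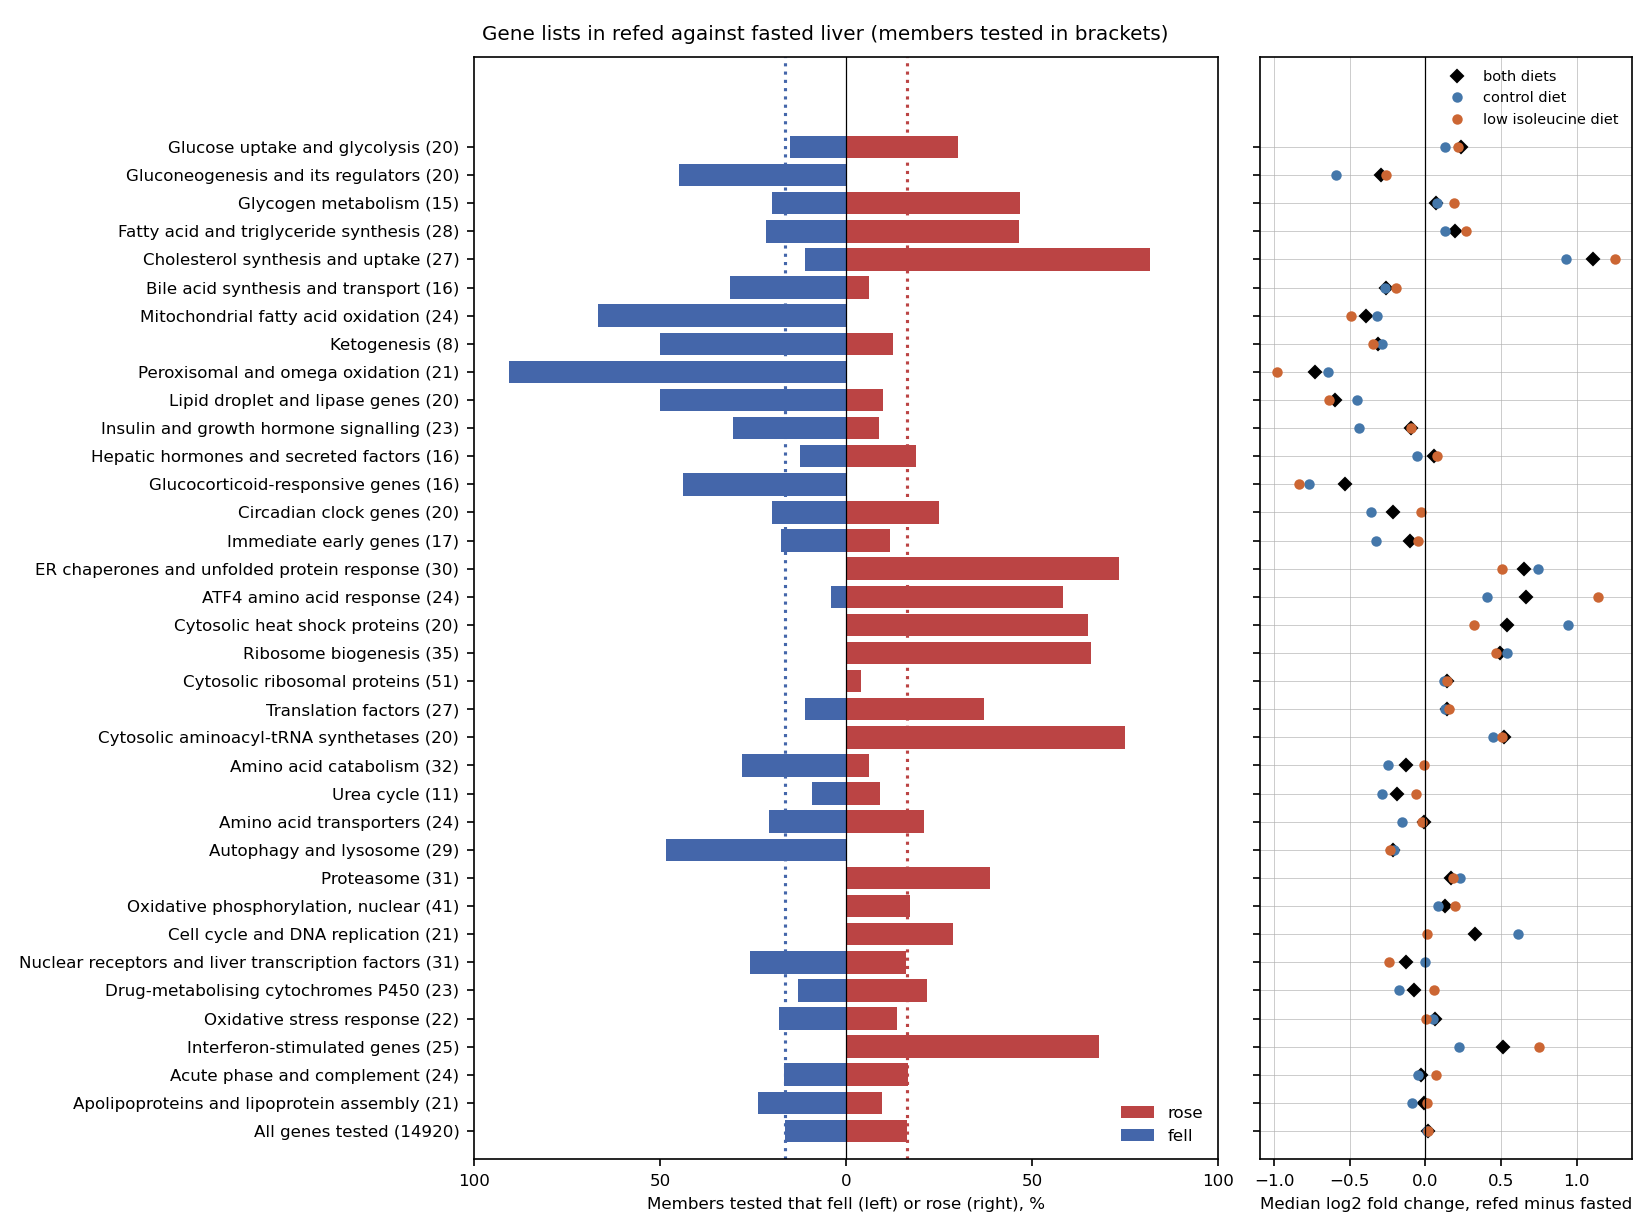
Left, share of tested members of each gene list that rose (red) or fell (blue) after refeeding, with dotted lines at the shares over all 14920 genes (16.4% each); right, median log2 fold change of each list over both diets and on each diet. The median is highest for the cholesterol list (1.11) and lowest for the peroxisomal list (-0.73).

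Some of the largest changes were in genes not described above. Actg1, cytoplasmic gamma-actin, lies on chromosome 11 at 120345690 to 120348542. Actg1 ran from 113 to 199 CPM in fasted livers (median 136) and from 569 to 1063 CPM in refed livers (median 730.4), 5.54-fold higher with no overlap (log2 fold change 2.47 ± 0.16 (SE), adjusted p = 5.78e-09). Cyp26a1, which clears retinoic acid, was 9.67-fold higher, from 0.706 to 5.35 CPM fasted to 10.1 to 60.5 CPM refed. Car3, carbonic anhydrase 3, was 5.21-fold higher and reached 3723 CPM. Rab30 ran from 26.4 to 62 CPM in fasted livers (median 41.6) and from 5.64 to 8.06 CPM in refed livers (median 6.82). The ranges of this small GTPase did not overlap, and it had the lowest adjusted p of the genes named here (log2 fold change -2.71 ± 0.13 (SE), adjusted p = 4.00e-10); it lies on chromosome 7 at 92741603 to 92844535. Mfsd2a, a transporter of lysophosphatidylcholine, Rnf125, a ubiquitin ligase, and Slc25a34, a mitochondrial carrier family member, fell by 2.75, 2.73 and 2.72 on the log2 scale, with all refed livers below all fasted ones. Zbed5 fell by 3.02 in the same way. Among liver transcription factors 5 rose and 8 fell of 31 (41.9% called against 32.9% of all genes); without control refed replicate 4, 6 rose and 8 fell. Hnf4a, which sets hepatocyte identity, fell by 0.55 on the log2 scale and Mlx, the partner of ChREBP, rose by 0.69 ± 0.07.

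Of 25 interferon-stimulated genes 17 rose and 0 fell (68% called against 32.9% of all genes, median 0.51). Without control refed replicate 4, 20 rose. In a model with no diet term 9 rose, beside 2355 of 14920 genes in all. In the control diet libraries alone 3 rose, beside 826 of 14185 genes in all. Oasl1 rose by 1.39 ± 0.17 with no overlap and Isg15, a ubiquitin-like modifier, by 1.25 ± 0.25. The median effect was 0.22 with control food and 0.75 with low isoleucine food, and the fasted livers were not alike: the mean level of the list was -0.63 to -0.03 on the low isoleucine diet and 0.26 to 0.65 on the control diet, without overlap. Refed levels were 0.19 to 0.59 and 0.31 to 1.03. Of the 25 genes, 0 passed the interaction test by edgeR, limma-voom or DESeq2.

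Markers of other liver cells were measured beside these results. Summed over the list, Kupffer cell and macrophage markers ran from 242 to 499 CPM fasted and from 228 to 547 CPM refed, stellate cell and fibroblast markers from 345 to 532 CPM fasted and from 287 to 637 CPM refed, and sinusoidal endothelial markers from 240.0 to 372 CPM fasted and from 169 to 395 CPM refed. In each of the 3 the highest refed value was control refed replicate 4; without it the refed maxima were 413, 427 and 312 CPM. Lymphocyte markers summed to at most 7.98 CPM in fasted livers and 14.2 CPM in refed livers, and neutrophil markers to at most 4.83 and 6.57 CPM, both again in control refed replicate 4. Cholangiocyte markers ran from 41.4 to 115 CPM fasted and from 45.4 to 70.7 CPM refed, and erythroid markers from 198 to 637 CPM fasted and from 174 to 293 CPM refed. No marker was without a count in all 16 libraries. Of 13 Kupffer, 7 cholangiocyte, 12 lymphocyte, 3 neutrophil and 5 erythroid markers tested, 0 passed. Of 11 endothelial markers 0 rose and 2 fell (18.2% called, median -0.29). With library size alone 0 of them fell, and the number over all 14920 genes was 1630 in place of 2449. Of 11 stellate markers 1 rose and 2 fell (27.3% called). Over all genes the share called was 32.9%. Without control refed replicate 4, 6 endothelial, 3 stellate and 1 neutrophil markers fell. Hepatocyte markers summed from 80079 to 137504 CPM fasted and from 93445 to 124827 CPM refed, and 0 rose and 1 fell of 10; without control refed replicate 4, 1 rose and 2 fell. The part that cell make-up has in the results above was not tested.

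**Figure D4:**
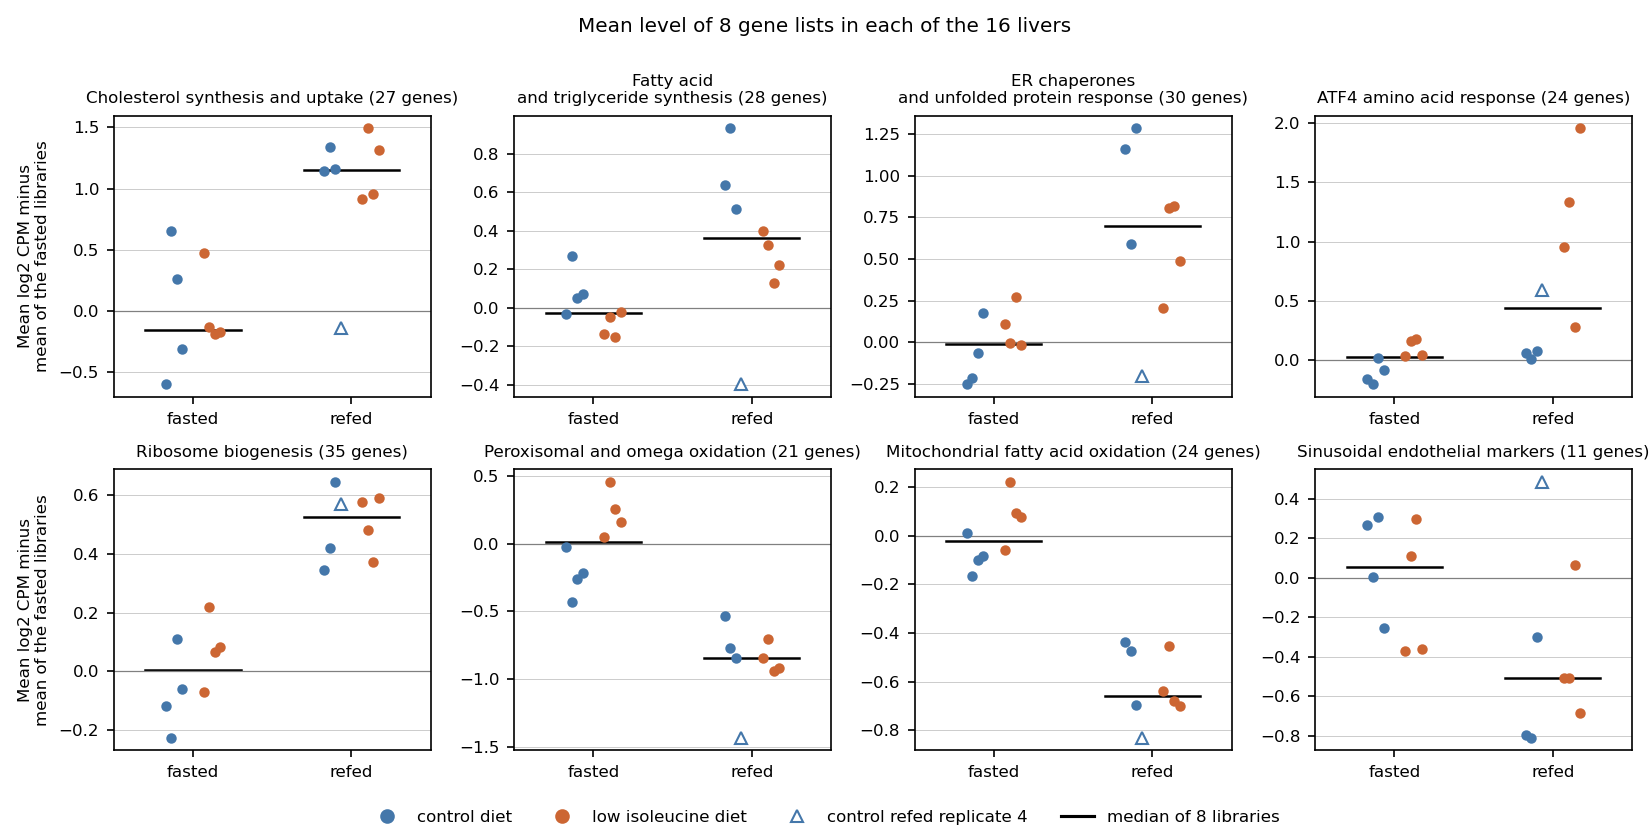
Mean log2 CPM of 8 gene lists in each liver, relative to the mean of the 8 fasted livers; symbols as in the plot of single transcripts. In control refed replicate 4 (open triangle) the cholesterol, fatty acid and ER lists lie at or below the fasted mean (-0.14, -0.40 and -0.20), the endothelial markers are at their highest (0.48), and the ribosome biogenesis and oxidation lists lie on the refed side.

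Whether the response was the same on both diets was asked in 3 ways. First, the effect of refeeding had the same sign on both diets for 4901 of the 4903 genes that passed. That count is helped by the choice of genes, which used both diets. In a model of 4 group means, 17.1% of genes passed with control food (8.91% higher, 8.2% lower) and 21.4% with low isoleucine food (9.6% higher, 11.8% lower). Second, each diet was fitted from its own 8 libraries, which share no sample. Among the 13966 genes tested in both fits, 1717 passed with control food and 3103 with low isoleucine food, and 1238 passed on both, in the same direction in all 1238 cases. These are 72.1% of the control diet calls and 39.9% of the low isoleucine calls. Of the genes called on the control diet 98.1% had the same sign on the low isoleucine diet, and of those called on the low isoleucine diet 96.1% had the same sign on the control diet, against 77.1% of all genes. Across genes the 2 sets of log2 fold changes had a Pearson correlation of 0.741 and a Spearman correlation of 0.699, given as a description because genes are not independent.

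Lastly, the difference between the diets was tested as an interaction. By edgeR 0 of 14920 genes passed (928 had an unadjusted p under 0.05, and the lowest adjusted p was 0.285), limma-voom also called 0, and DESeq2 called 35, of which 16 had a higher and 19 a lower effect on the low isoleucine diet. A missed threshold does not show equal effects, and the intervals say what the data allow. For 3634 of the 4903 responding genes (74.1%) the 95% interval of the difference between diets lay within 2-fold in either direction. For the others it reached beyond 2-fold. Acly rose by 1.28 with control food and 1.29 with low isoleucine food, a difference of 0.01 (95% interval -0.46 to 0.47). Igfbp1 changed by -4.22 with control food and -1.28 with low isoleucine food, a difference of 2.94 (95% interval 0.24 to 5.65; adjusted p = 0.791). Slc16a1 changed by -0.27 with control food and -1.43 with low isoleucine food (95% interval of the difference -1.69 to -0.62, adjusted p = 0.345 by edgeR and 0.0252 by DESeq2).

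**Figure D5:**
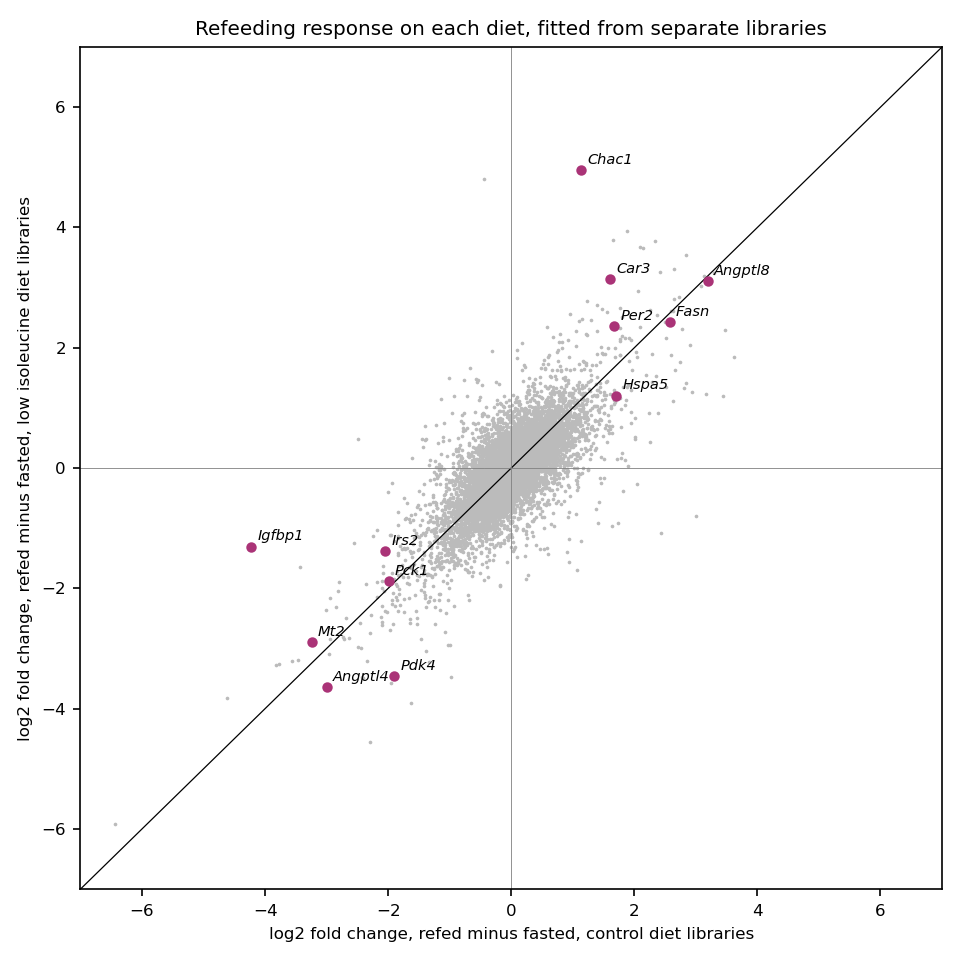
Log2 fold change after refeeding in the 8 low isoleucine libraries (vertical) against that in the 8 control libraries (horizontal) for 13966 genes; the line marks equal effects and named genes are in colour. Igfbp1 lies further from 0 on the control axis and Chac1 and Pdk4 on the low isoleucine axis.

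For 7135 genes (47.8%) the 95% interval of the refeeding effect lay within 1.5-fold in either direction. They include 1240 genes that passed with a small change and 5895 that did not pass. The 5 with the tightest intervals around 0 were Becn1, of the autophagy initiation complex, Emc7, of the ER membrane complex, Kcmf1, a ubiquitin ligase, Stradb, a pseudokinase, and Sdhd, of succinate dehydrogenase. Becn1 ran from 43.6 to 51.3 CPM in fasted livers (median 49.2) and from 45.4 to 53.5 CPM in refed livers (median 48.4). The ranges overlap almost fully, and the 95% interval of its log2 fold change was -0.12 to 0.12. Sdhd ran from 206 to 251 CPM in fasted livers (median 218) and from 205 to 245 CPM in refed livers (median 225), with an interval of -0.13 to 0.14.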

How the data were processed

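Poly-A RNA of 16 livers was sequenced in 3 lanes that were merged, per the labels' protocols. The deposited table holds the authors' expected counts per gene, not normalized; the aligner, build and annotation were not given in the sources used here, and edgeR, limma and R 3.5.3 are named with no role in the submitters' processing notes. The authors' deposited tables of diet comparisons were not used here.

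The estimated counts were rounded to whole numbers, and genes with low counts were removed with filterByExpr (minimum count 10, minimum total 15). They were scaled by TMM and tested with edgeR 4.0.16 in R 4.3.3, with the robust quasi-likelihood test, a diet and a feeding term, and Benjamini-Hochberg adjustment over all tested genes at 0.05. Effects on each diet and their difference came from a model of 4 group means. DESeq2 1.42.0 and limma 3.58.1 (voom), other scalings, filters and models, and leaving out each library were the alternatives. The procedure was tested on simulated data. SE was derived from the log2 fold change and its F statistic, and CPM is the TMM-scaled level. A gene on several lists counts under each. Genes named are a list of known genes, the largest changes by fold and by CPM, up to 4 per list, and those nearest to no change; some of them are not reported here. The members and lists were chosen with earlier results of these data known. Promoters came from RefSeq (GRCm38.p6) and positions from GENCODE M21.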

Additional observations from a re-analysis of the deposited data

Results flagged for a closer look

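Among the genes named, 19 of 236 sets of 8 libraries of 1 feeding state (8.05%) held a library far from the others; chance gives about 1 in 20. In 7 sets it was control refed replicate 4, the lowest refed library, for genes of lipid synthesis and glycolysis. Its values there were 50.4 CPM for Pklr, 62.2 CPM for Fasn, 9.65 CPM for Mid1ip1, 29.5 CPM for Sqle, 2.63 CPM for Mvd, 49.9 CPM for Fdps and 86.5 CPM for Insig1.

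The other refed values that stood apart were 290.2 CPM for Hsph1 and 1126 CPM for Hsp90aa1 (highest, both control refed replicate 3), 1839 CPM for Tdo2 (highest) and 10.5 CPM for Rrp12 (lowest, both low isoleucine refed replicate 3), and 11.7 CPM for Cyp2u1, a cytochrome P450 (lowest, control refed replicate 2). Among fasted libraries they were 34.4 CPM for Srebf1 (highest, control fasted replicate 2), 81.0 CPM for Cyp7a1 (lowest, control fasted replicate 4) and 44.2 CPM for Hamp (lowest, low isoleucine fasted replicate 1). In low isoleucine fasted replicate 2, Yars was highest at 24.9 CPM. In low isoleucine fasted replicate 3, Bhlhe40, Chac1 and Becn1 were lowest, at 26.9, 0.151 and 43.6 CPM.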

How the results depend on the processing

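The refeeding call count stayed within 1.5 times 4903 under other scalings, filters and tests. It was 657 (253 higher, 404 lower) with a fold threshold of 1.5, 1729 (826 higher, 903 lower) in the control diet libraries only and 3137 (1326 higher) in the low isoleucine libraries only; both diet fits use 8 libraries. With library size alone 5269 passed, of which 1630 were lower. Leaving out 1 library gave 4425 to 5332 calls, 2189 to 2551 higher and 2235 to 2781 lower. The interaction gave 35 genes by DESeq2 (16 higher, 19 lower) and 0 to 1 with 1 library left out; the 1, higher, was Hsd3b3 without low isoleucine fasted replicate 1; the cause was not tested. Of the 4903 genes, 3274 (66.8%) passed in all 27 fits to 15 or 16 libraries (the fold threshold aside), and 0 passed in the opposite direction in any. Of 176 genes named by rule, 150 of the 167 that passed did so in all of them. Replicate numbers shared between groups were not treated as pairs of mice. The median correlation of same-numbered libraries' deviations was 0.031 (-0.32 to 0.32, 8 of 24 pairs over 0.1), against -0.024 for other pairs. A correlation over all genes cannot exclude a pairing. With the replicate block 4747 genes passed, and 0 for the interaction. With 4 libraries a group, the median 95% half-width was 0.30 for the refeeding effect and 0.59 for the interaction, on the log2 scale.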
